A study of Mus musculus with 5 samples.

Results

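The genes of macrophage lipid handling followed here in single cells of injured mouse kidney were Apoe, Apoc2, Abca1, Abcg1, Trem2, Tyrobp, Gpnmb and Lgals3. They are 8 of the 32285 genes in the files. They were chosen by name, with earlier results of these data known, and their counts of unique molecular identifiers (UMIs, each marking 1 captured RNA molecule) were summed per cell type and library. The kidneys came from 5 mice with ischemia-reperfusion injury (IRI), 2 of them (mice 1 and 2) taken 48 h and 3 (mice 3 to 5) taken 10 days after it. Per mouse, 1 library was made with the 3′ kit v3.1 of 10x Genomics, which tags the ends of polyadenylated RNA in single cells. The labels give the organism, the tissue and the time after IRI; the strain, the age and the genotype are not given in the sources used here. All groups carry the injury, no uninjured kidney was analysed here, and the time and any batch of library preparation cannot be told apart.

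Macrophages that take up dying cells receive their cholesterol and fatty acids. Part of this cholesterol is esterified and stored in droplets, and part is exported by the membrane transporters encoded by Abca1 and Abcg1 to acceptor particles that carry apolipoprotein E, the product of Apoe. Oxidised cholesterol activates the liver X receptors (LXR), which bind DNA with the retinoid X receptors and raise transcription of Abca1, Abcg1, Apoe and Apoc2. TREM2 is a receptor for lipids and lipoproteins on macrophages and microglia and signals through the adaptor TYROBP. GPNMB is a glycoprotein of lysosomal and plasma membranes, and galectin 3, the product of Lgals3, binds sugars on damaged lysosomes and at the cell surface. These genes are often high together in lipid-associated macrophages of fat tissue, plaque and injured brain.

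The start regions of the genes whose levels differed most between the times are shown so that the LXR element can be seen beside its gene. RefSeq start regions of build GRCm38.p6 matched 6 of the 8 genes (not Abcg1 and Tyrobp), and the 250 bases before the start are printed 5′ to 3′ on the gene's strand. Capitals mark matches to any of 5 motifs searched on both strands: the LXR element (GGTNA, any 5 bases, GGTNA), the E-box CACGTG of MITF and TFE factors, the M-box core CATGTG, the PU.1 core GAGGAAG and the AP-1 site TGACTCA.
Abca1, chr4:53159896-53160145, minus strand: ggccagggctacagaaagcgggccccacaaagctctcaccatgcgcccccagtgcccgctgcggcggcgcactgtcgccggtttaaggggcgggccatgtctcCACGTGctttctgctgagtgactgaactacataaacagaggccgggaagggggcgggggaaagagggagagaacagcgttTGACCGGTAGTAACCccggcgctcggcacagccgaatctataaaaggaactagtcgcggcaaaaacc
Apoe, chr7:19699189-19699438, minus strand: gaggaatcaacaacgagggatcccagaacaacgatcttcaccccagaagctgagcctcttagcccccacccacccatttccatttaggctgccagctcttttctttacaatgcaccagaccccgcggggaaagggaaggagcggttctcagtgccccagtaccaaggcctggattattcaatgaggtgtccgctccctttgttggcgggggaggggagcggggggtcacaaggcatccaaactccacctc
Trem2, chr17:48346151-48346400, plus strand: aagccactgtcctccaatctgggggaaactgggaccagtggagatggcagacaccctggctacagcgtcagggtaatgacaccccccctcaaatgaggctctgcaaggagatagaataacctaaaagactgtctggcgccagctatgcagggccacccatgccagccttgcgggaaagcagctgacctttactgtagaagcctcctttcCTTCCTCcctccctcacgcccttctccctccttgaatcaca
Gpnmb, chr6:49036268-49036517, plus strand: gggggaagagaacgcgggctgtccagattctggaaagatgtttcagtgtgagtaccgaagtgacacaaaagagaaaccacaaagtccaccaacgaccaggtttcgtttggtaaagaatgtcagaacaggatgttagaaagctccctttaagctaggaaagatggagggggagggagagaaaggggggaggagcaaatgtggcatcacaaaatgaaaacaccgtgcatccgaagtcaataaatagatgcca
Abca1 held an LXR element (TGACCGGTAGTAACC on the printed strand, bases -67 to -53 from the start) and a CACGTG (bases -147 to -142). Trem2 held a PU.1 core on the other strand (CTTCCTC, bases -41 to -35). These windows of Apoe and Gpnmb held no match, which says only that these letters are not in them. Among 32851 RefSeq start regions of the same length, 0.621% held the LXR element, 6.02% CACGTG, 12.3% CATGTG, 10.6% GAGGAAG and 4.46% TGACTCA, so a match to any but the first is common.

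The authors' labels place 8138 of the 23797 kept cells in the immune type, and their clustering divides it. Cluster 0 is the macrophage-like cluster: all 9 macrophage markers were detected in every library, with a summed level of 9982 and 6587 counts per 1000000 UMIs (CPM) at 48 h and 16829, 15344 and 15688 CPM at day 10. It held 514 and 614 cells at 48 h and 1856, 1584 and 1753 at day 10. Monocyte markers summed to 5244 and 7730 CPM at 48 h against 812, 1071 and 1117 at day 10, neutrophil markers to 1463 and 3282 against 58.9, 92.9 and 102, and MHC class II markers to 4907 and 2423 against 22349, 4418 and 23779. Mouse 4 thus had the lowest class II level of the day 10 mice. Dendritic cell markers were low but had the same order at day 10, with 132, 19.9 and 121 CPM summed in mice 3 to 5 against 14.7 and 10.9 at 48 h. Cluster 5 carried neutrophil markers (59260 to 219513 CPM summed) and cluster 10 T and NK cell markers (3927 to 7033 CPM summed). Kept cells per library numbered 3720 to 5912, with 45887945 to 78351722 UMIs in all and medians of 5823 to 11750 UMIs per cell. Libraries shared 3 to 10 cell barcodes per pair. The name of the set holds for cluster 0 in part: Apoe, Trem2, Gpnmb and Apoc2 had their highest mean levels there at both times. Tyrobp was higher in cluster 5, and Abcg1 in cluster 5 and endothelium. At 48 h the mean of Abca1 was higher in endothelium, distal convoluted tubule and cluster 5, among others, than in cluster 0. At day 10 the mean of Lgals3 was higher in principal cells of the collecting duct, thick ascending limb, injured distal tubule cells and cells labelled TEC.

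Between the times, 4 genes stood out in cluster 0. By mean CPM, Apoe was 14.8 times as high at day 10, Gpnmb 10.8 times, Abca1 4.91 times and Trem2 2.2 times, and the values of Tyrobp overlapped. Because the set was chosen with this contrast known, the fold changes are given as a description, with no p-value, and the calls of the fit over all genes are counted without reading anything from them. By the edgeR quasi-likelihood test with an adjusted p below 0.05, 5 of the 8 were called higher and 1 (Apoc2) lower at day 10, where 11.5% and 12.5% of the 13980 genes tested were called in those directions. Fewer of the 8, and fewer of all genes, were called without mouse 1 or without mouse 2, which leaves 1 mouse at 48 h. Without mouse 3 or mouse 5 the count was 5 higher and 0 lower, and without mouse 4 it was 5 and 2. With equal cells and 1000 UMIs per cell it was 4 and 2, and without cells that held a monocyte marker UMI 6 and 0. The share of all genes called also differed between these settings, so nothing is read from those counts. The median log2 fold change was 1.07 over the 8 genes and 0.07 over all genes tested. For the 8 it was 0.98 without mouse 1 and 1.17 without mouse 2. CPM of 7 of the 8 did not overlap between the times, a property of 57.9% of all genes tested, and nothing is read from that share.

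**Figure D1:**
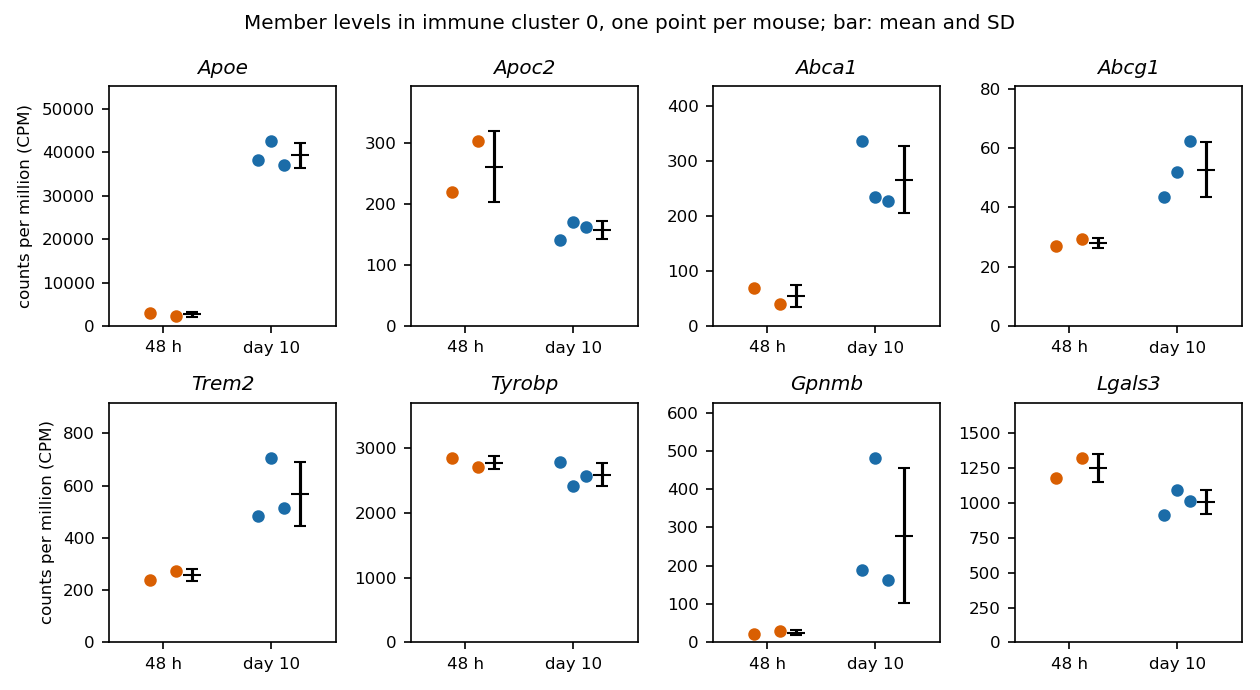
CPM of the 8 genes in immune cluster 0 (vertical axes, each from 0), with 1 point per mouse at 48 h (orange, 2 mice) and day 10 (blue, 3 mice) and bars for the mean and SD. Apoe lies between 2260 and 3039 CPM at 48 h and between 37091 and 42564 at day 10, Tyrobp overlaps between the times, and Apoc2 and Lgals3 lie lower at day 10.

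Apoe encodes the lipid carrier that accepts exported cholesterol. Its level in cluster 0 was 3039 and 2260 CPM in the 48 h mice and 38364, 42564 and 37091 CPM in the day 10 mice. All 3 late mice were far above both early mice and lay close to each other (log2 fold change day 10 against 48 h 3.95, SE 0.16). A UMI counts 1 transcript end, so no length enters these shares: Apoe made up 0.304 and 0.226% of cluster 0 UMIs at 48 h, rank 37 and 69 among all genes, and 3.84, 4.26 and 3.71% at day 10, rank 1 in each mouse. Per cell, with each cell thinned to 1000 UMIs, the median was 2 and 1 Apoe UMIs at 48 h and 37, 41.5 and 37 at day 10. The difference ran through most of the cluster: at day 10 the middle 50% of cells lay between 14 and 59 UMIs in mice 3 and 5 and between 25 and 59 in mouse 4. Cells without an Apoe UMI at this depth were 31.3 and 33.9% of cluster 0 at 48 h and 9.05, 3.41 and 8.84% at day 10.

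**Figure D2:**
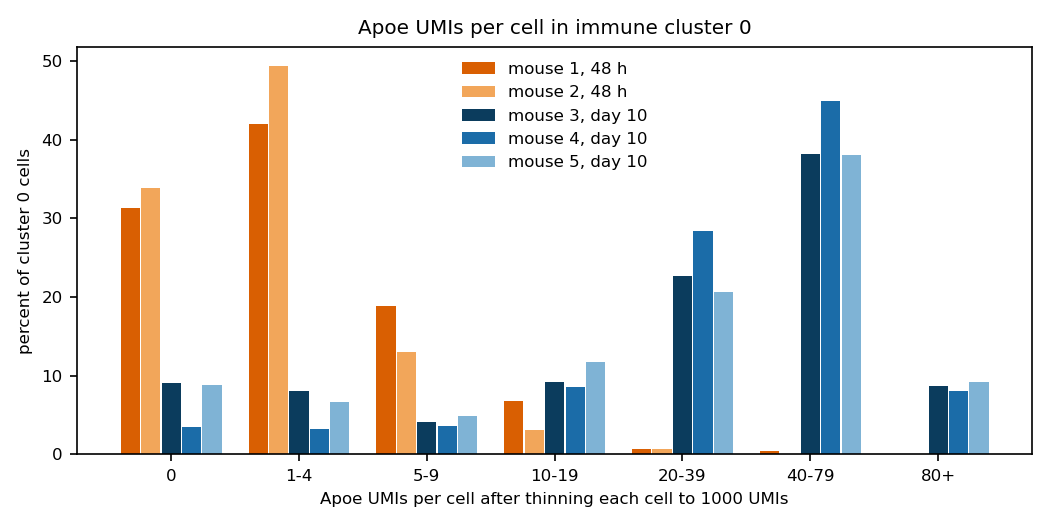
Percent of cluster 0 cells (vertical axis) by the number of Apoe UMIs per cell after thinning to 1000 UMIs (horizontal axis), 1 bar colour per mouse. At 48 h the fullest class is 1 to 4 UMIs (42.0 and 49.3% of cells), and at day 10 it is 40 to 79 UMIs (38.3, 44.9 and 38.1%).

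Apoc2 encodes the apolipoprotein that activates lipoprotein lipase and lies in the same gene cluster as Apoe. On chromosome 7 (GRCm38, GENCODE M21, minus strand) Apoe spans 19696109-19699188, Apoc1 19689481-19692660, Apoc4 19678083-19681479 and Apoc2 19671579-19677941. Their values ran in different directions. Apoc2 stood at 220 and 303 CPM at 48 h and 142, 171 and 162 at day 10, lower in every late mouse (log2 fold change -0.68, SE 0.17). Apoc4 rose from 0.135 and 0.504 CPM to 4.90, 16.8 and 8.59 (log2 fold change 4.91, SE 0.84, edgeR adjusted p = 0.0117). Its 48 h values rest on few UMIs, so the size of that fold change is uncertain. Apoc1 overlapped, at 7.15 and 13.5 CPM against 11.3, 16.8 and 12.6 (log2 fold change 0.43, adjusted p = 0.356). GENCODE M21 also lists Gm44805 across Apoc2 and Apoc4, which is not among the files' genes.

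The direction of Apoc2 depended on which cells of cluster 0 were summed. Cells with a UMI of the monocyte markers Ly6c2, Plac8, Vcan, Hp or Chil3 after thinning to 1000 UMIs made up 42.8 and 56.2% of cluster 0 at 48 h and 4.26, 10.3 and 6.79% at day 10. In those cells Apoc2 was 445 and 449 CPM at 48 h and 253, 221 and 235 at day 10; in the others it was 88.4 and 70.6 against 124, 141 and 132. So Apoc2 was higher at day 10 among cells without these markers and lower among cells with them. When every cell with an unthinned monocyte marker UMI was left out, 215 and 186 cells remained at 48 h and 1565, 1009 and 1380 at day 10. Apoc2 was then 16.5 and 13.3 CPM against 132, 148 and 142, a log2 fold change of 3.27 in place of -0.68. The cells left at 48 h were shallower than the cluster (medians of 8785 and 7728 UMIs against 13231 and 14660), and the part of depth in the result was not tested.

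Abca1 and Abcg1 encode the transporters that export cholesterol, the first to lipid-poor apolipoproteins and the second to formed particles. Abca1 in cluster 0 was 68.5 and 39.9 CPM at 48 h and 336, 235 and 228 at day 10 (log2 fold change 2.36, SE 0.30). No early mouse came near a late mouse. The share of cluster 0 cells with an Abca1 UMI after thinning went from 4.09 and 3.26% to 25.6, 19.8 and 17.2%. Abcg1 was 26.8 and 29.3 CPM at 48 h and 43.6, 52.0 and 62.2 at day 10, without overlap but with a smaller difference (log2 fold change 0.96, SE 0.17). The share of cells with an Abcg1 UMI was 2.14 and 3.58% against 4.58, 4.04 and 5.13%. At this depth few cells hold any Abcg1 UMI, so its spread over cells was not followed.

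Trem2 encodes the lipid receptor and Tyrobp its adaptor. Trem2 was 240 and 275 CPM at 48 h and 482, 706 and 513 at day 10 in cluster 0 (log2 fold change 1.19, SE 0.20), with mouse 4 the highest. The share of cells with a Trem2 UMI after thinning was 16.9 and 17.9% against 30.9, 46.7 and 32.7%. Tyrobp was 2855 and 2710 CPM at 48 h and 2792, 2425 and 2574 at day 10 (log2 fold change -0.05, SE 0.10), with mouse 3 inside the early range. That difference is smaller than its error. Most Trem2 RNA was in cluster 0, which held 96.7 to 98.4% of the Trem2 UMIs of each library while holding 12.2 to 48.2% of all UMIs.

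Gpnmb had the widest spread among the late mice. It stood at 21.4 and 30.2 CPM at 48 h and at 190, 482 and 164 at day 10 (log2 fold change 3.48, SE 0.57), and mouse 4 stood well above the other late mice. Without mouse 4 the log2 fold change was 2.80. Gpnmb marked a minority of cells. Cluster 0 cells of at least 5000 UMIs were thinned to 5000, and cells with fewer were left out. Of those used, 1.67 and 2.84% held a Gpnmb UMI at 48 h (7 of 419 and 15 of 528 cells) and 14.1, 34.2 and 9.83% at day 10.

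Lgals3, the galectin 3 gene, went the other way in cluster 0. It was 1179 and 1322 CPM at 48 h and 915, 1090 and 1012 at day 10 (log2 fold change -0.26, SE 0.12), lower in every late mouse by a small margin. The share of cells with an Lgals3 UMI after thinning lay further apart, 54.5 and 58.0% against 30.9, 35.5 and 29.7%. As for Apoc2, the direction turned without cells that held a monocyte marker UMI: Lgals3 was then 712 and 465 CPM at 48 h against 721, 827 and 876 at day 10 (log2 fold change 0.50).

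Within a mouse, Gpnmb and Lgals3 were high in the same cells although their averages moved apart. Only cells of at least 5000 UMIs, thinned to 5000, were used for this. In cells with a Gpnmb UMI the mean was 17.0 and 19.0 Lgals3 UMIs at 48 h and 7.96, 7.14 and 10.1 at day 10. In cells without one it was 5.77, 5.96, 2.54, 2.30 and 2.77 for mice 1 to 5. Lgals3 was thus higher in Gpnmb-positive cells in 5 of 5 mice, by 2.95 to 3.64 times. Trem2 had the same order, with means of 2.00, 3.60, 4.37, 4.44 and 4.17 UMIs in mice 1 to 5 against 1.09, 1.12, 1.96, 2.82 and 2.13. Apoe also had it, with means of 33.4, 43.8, 276, 247 and 238 UMIs against 16.4, 11.8, 189, 200 and 193. Tyrobp did not at 48 h (9.43 and 11.6 UMIs in Gpnmb-positive cells against 15.4 and 14.1), where the positive cells numbered only 7 and 15. Cells of a library are not replicates, so these are descriptions of each mouse.

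MHC class II divided cluster 0 in another way. Cells with at least 10 class II UMIs of 1000 were 18.5 and 11.1% of cluster 0 at 48 h and 59.6, 17.5 and 67.2% at day 10. The part of dendritic cells among these class II-high cells was not tested. At day 10 the class II-high cells had less Apoe (29589, 29000 and 33065 CPM) than the other cells (52816, 46422 and 51842 CPM). They also had less Gpnmb, 31.6, 18.1 and 25.5 CPM against 252, 408 and 203. Trem2 was 295, 433 and 345 CPM in class II-high cells against 652, 732 and 696, and Abca1 210, 119 and 149 against 569, 271 and 363. Within the class II-high cells Apoe was still 9.38 times as high at day 10 by mean CPM, since the early mice had 3253 and 3265 CPM there. Mouse 4 had both the fewest class II-high cells and the highest Gpnmb and Trem2 of the late mice, and within the other cells its Trem2 lay close to that of mice 3 and 5 while its Gpnmb stayed the highest.

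Outside cluster 0, Trem2, Gpnmb and Apoc2 had mean levels of at most 25.4, 20.2 and 25.8 CPM in the types compared, while Abca1, Abcg1, Lgals3 and Tyrobp had other high sites. Apoe had a second high site in the endothelium: 1458 and 1345 CPM at 48 h and 1410, 1680 and 2160 at day 10 (log2 fold change 0.23, SE 0.17). Its early and late values overlap there, whereas those of cluster 0 do not. The macrophage complement gene C1qa was higher in the endothelium at day 10, at 74.1, 81.7 and 173 CPM against 6.69 and 18.6 at 48 h. The part of macrophage RNA in the late endothelial values of Apoe was not tested. In the cells labelled interstitial, Apoe was 561 and 900 CPM against 1127, 1385 and 1084. In the S1 segment of the proximal tubule it was 371 and 250 CPM against 1186, 1302 and 1033. In the thick ascending limb, labelled AscenThickLOH, it was 19.6 and 10.2 CPM against 603, 775 and 679.

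**Figure D3:**
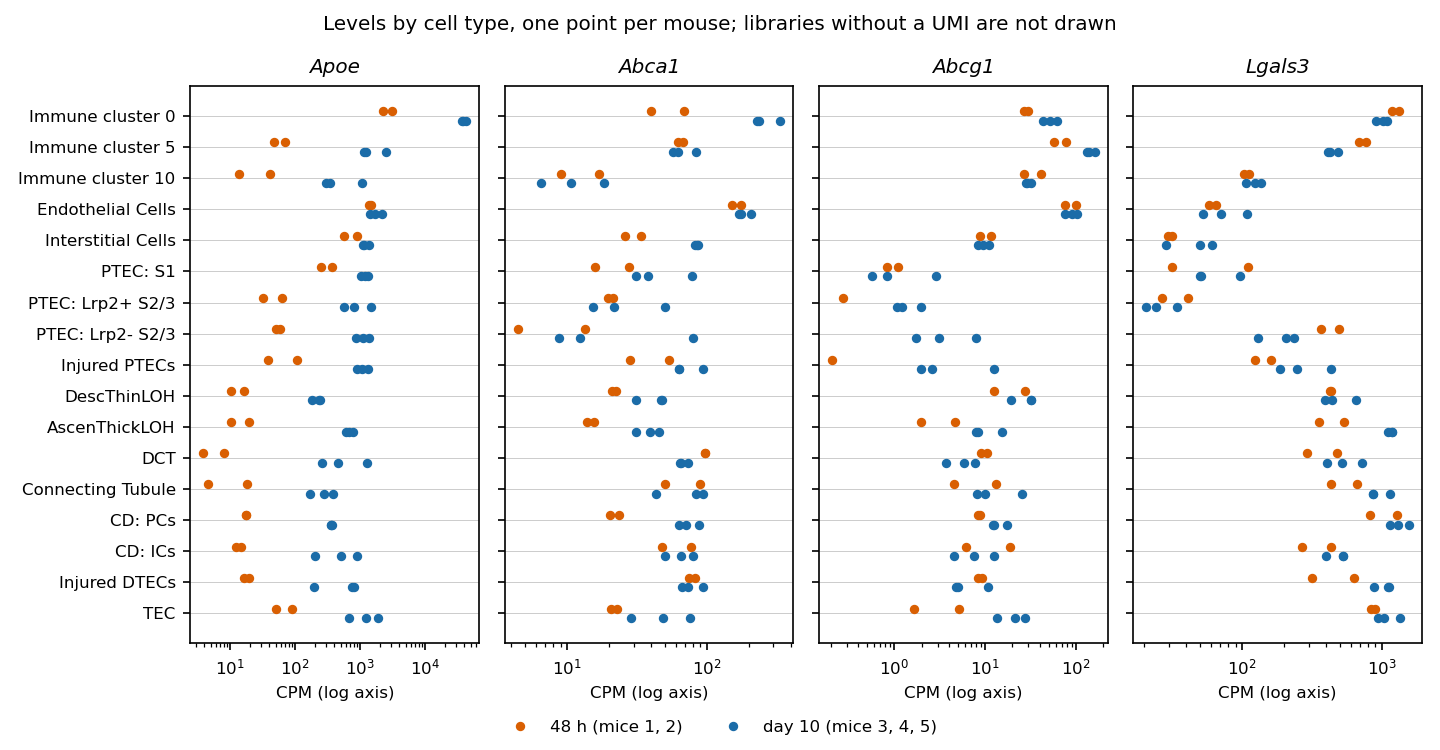
CPM (horizontal log axes) of Apoe, Abca1, Abcg1 and Lgals3 in 17 cell types and immune clusters (rows), 1 point per mouse, orange for 48 h and blue for day 10. Apoe separates by time in every row except the endothelial cells, Abcg1 has its highest means in cluster 5 and the endothelium, and Lgals3 at day 10 lies higher in principal cells and thick ascending limb than in cluster 0.

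By the same call as in cluster 0, Apoe was higher at day 10 in most other types, and nothing is read from these counts because the set was chosen with this contrast known. In connecting tubule Apoe was the single gene called higher among 9645 tested (0.0104%). There 5 of the 8 had enough counts to be tested. Apoe was also the single call among the genes of the set tested in intercalated cells (5 tested), principal cells (6), distal convoluted tubule (4), descending thin limb (5), cluster 10 (3), injured distal cells (6), Lrp2-positive S2/3 cells (6) and S1 cells (7). The shares of tested genes called higher there were 0.0666, 0.0448, 0.391, 2.77, 0.0243, 0.0632, 0.370 and 0.389%, in that order. In cluster 5 Apoe and Trem2 were called higher and Lgals3 lower (7 tested), where 7.79% of tested genes were called higher and 10.7% lower. Trem2 was low there, at 3.36 and 3.06 CPM at 48 h against 6.42, 42.0 and 27.9 at day 10. In injured proximal tubule cells Apoe and Tyrobp were called higher and Apoc2 lower (8 tested), against 2.76 and 3.12% of tested genes. In Lrp2-negative S2/3 cells Apoe was called higher and Lgals3 lower (3 tested), against 0.724 and 0.706%. In the TEC label Apoe and Tyrobp were called higher (6 tested), where 0.282% were. In the thick ascending limb 5 of 8 were called higher (Abca1, Gpnmb, Apoe, Lgals3 and Trem2), where 4.98% of tested genes were. Gpnmb and Trem2 were low there. Gpnmb was 0 and 0.12 CPM at 48 h against 1.59, 4.91 and 1.48 at day 10. Trem2 was 0.27 and 0.73 against 4.40, 7.75 and 5.35 CPM. The part of RNA from lysed cells in these and the other calls outside cluster 0 was not tested. In the whole immune type 5 of 8 were called higher, where 10.0% of tested genes were. In the endothelium 0 of 8 were called in either direction, with 0.328% of all genes called. In interstitial cells Abca1 and Gpnmb were called higher and Apoe was not, with 3.91% called higher.

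RNA set free by lysed cells can enter droplets of every type. The level of each gene in a type was therefore set against its level in cluster 0 of the same library. Over 12 tubule types the median was 1.80% of the cluster 0 level for Apoe at day 10, 0.90% for Tyrobp, 0.96% for Trem2 and 1.00, 0.97 and 1.05% for the macrophage complement genes C1qa, C1qb and C1qc. At 48 h it was 0.74% for Apoe, 0.21% for Tyrobp and 0.13, 0.17 and 0.14% for C1qa, C1qb and C1qc. In the thick ascending limb at day 10, Apoe stood at 1.57, 1.82 and 1.83% of the cluster 0 level and C1qa at 1.14, 1.28 and 1.38%. The ratio of Apoe to C1qa in that type was thus 1.32 to 1.43 times the ratio in cluster 0 at day 10, and 2.79 and 7.68 times it at 48 h. The share of thick ascending limb cells with an Apoe UMI after thinning was 1.76 and 0.58% at 48 h and 30.1, 36.4 and 31.7% at day 10. C1qa was also higher there at day 10, at 58.8, 54.3 and 67.1 CPM against 2.45 and 2.81 CPM at 48 h. The part of free RNA in those shares of Apoe was not tested, and no change of Apoe in the cells of this type is read from them.

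In endothelial, interstitial and S1 cells Apoe stood further above the complement genes, and more so at 48 h than at day 10. In the endothelium at 48 h it was 48.0 and 59.5% of the cluster 0 level, where C1qa was 0.23 and 1.06%. In interstitial cells it was 18.5 and 39.8% against 0.04 and 0.40%, and in S1 proximal tubule 12.2 and 11.1% against 0.22 and 0.29%. At day 10 the S1 values were 3.09, 3.06 and 2.79% for Apoe and 0.56, 0.91 and 0.61% for C1qa, a smaller distance than at 48 h. The endothelium then had 3.68, 3.95 and 5.82% for Apoe and 1.44, 1.92 and 3.58% for C1qa. Its ratio of Apoe to C1qa was 1.63 to 2.55 times that in cluster 0, and that of interstitial cells 2.11 to 3.03 times. The cluster 0 level of Apoe was itself higher at day 10, which lowers these percents of Apoe. The part of free RNA in them was not tested. The share of S1 cells with an Apoe UMI after thinning was 17.1 and 14.2% at 48 h, against 1.76 and 0.58% in the thick ascending limb at the same thinned depth. Without cells that held a UMI of C1qa, C1qb, C1qc, Cd68, Adgre1 or Csf1r, Apoe in S1 cells was 387 and 230 CPM at 48 h and 991, 999 and 863 at day 10. In the same cells of the thick ascending limb it was 22.5 and 11.4 against 373, 403 and 496 CPM, and in those of the endothelium 1472 and 1409 against 1187, 1518 and 1162 CPM.

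**Figure D4:**
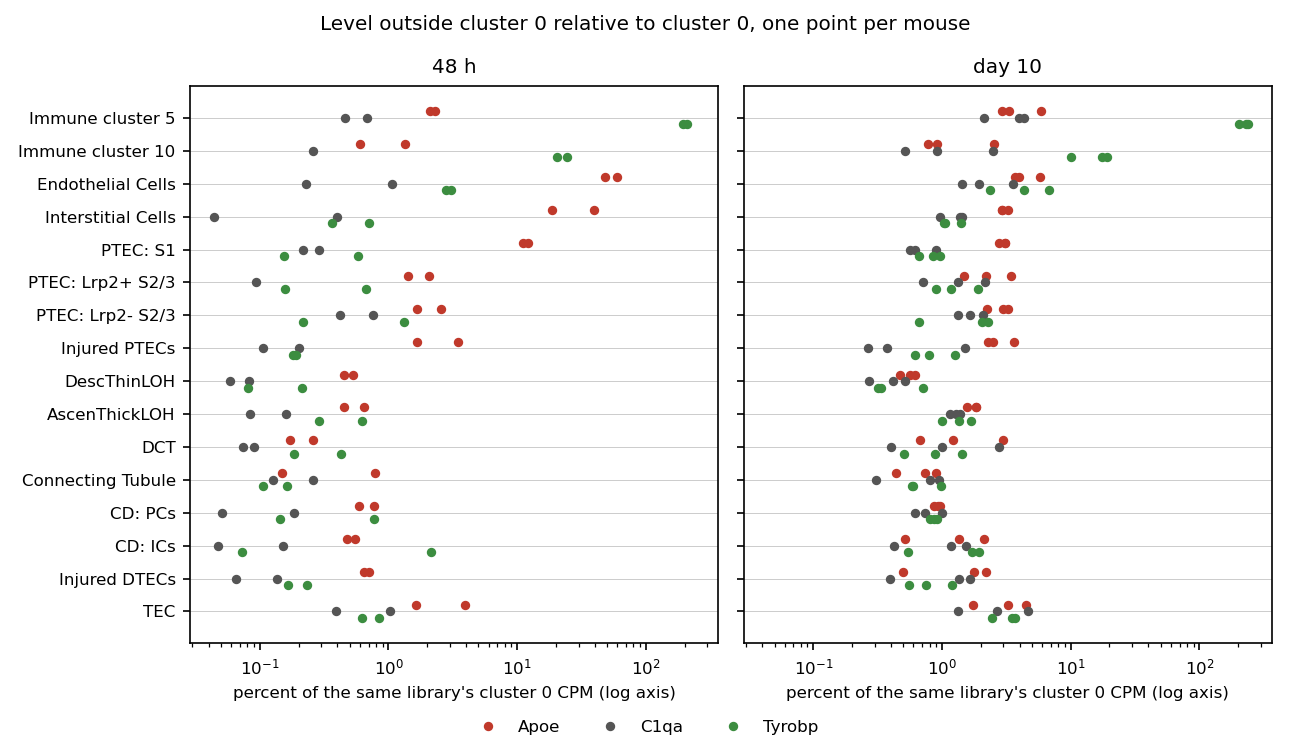
Level of Apoe (red), C1qa (grey) and Tyrobp (green) outside cluster 0 as a percent of the same library's cluster 0 CPM (horizontal log axis), by cell type (rows), with 1 point per mouse and 1 panel per time. At 48 h Apoe lies far to the right of C1qa in endothelial, interstitial and S1 cells; at day 10 the points of most tubule types lie close together near 1%.

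Abcg1 was high in the neutrophil-marked cluster 5, at 78.2 and 57.8 CPM at 48 h and 138, 160 and 133 at day 10. The endothelium had 99.6 and 76.3 against 90.9, 102 and 76.4 CPM. These 2 sites overlapped at 48 h, and cluster 5 was the higher at day 10. Abca1 in the endothelium was 177 and 152 CPM against 176, 207 and 170, above cluster 0 at 48 h and below it at day 10. In the distal convoluted tubule Abca1 was 97.7 and 97.8 CPM at 48 h and 65.7, 73.4 and 64.1 at day 10, a difference opposite to that in cluster 0. In interstitial cells it was 33.6 and 26.2 CPM against 84.8, 86.1 and 82.2. Tyrobp was 5945 and 5259 CPM in cluster 5 at 48 h and 6653, 4950 and 5918 at day 10, above cluster 0 in 5 of 5 mice.

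Lgals3 was an epithelial as well as a macrophage gene. Principal cells of the collecting duct had 1290 and 818 CPM at 48 h and 1136, 1559 and 1302 at day 10, which overlap with each other. They overlapped with cluster 0 at 48 h and lay above every cluster 0 value at day 10. In the thick ascending limb Lgals3 was 532 and 354 CPM at 48 h and 1172, 1101 and 1174 at day 10 (log2 fold change 1.01). In injured distal tubule cells it was 636 and 315 CPM against 1126, 881 and 1102. In cluster 5 it was lower at day 10, 689 and 765 against 411, 488 and 422 CPM. Without cells holding a macrophage marker UMI the thick ascending limb still had 544 and 364 CPM at 48 h and 1378, 1136 and 1198 at day 10.

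The genes around the set were tested in cluster 0 from 9 lists of pathway genes. Adjusted p-values of pathway genes come from the same edgeR fit over 13980 genes, of which 24.1% were called. The lists were chosen with earlier results of these data known, and each count below is to be read against that share. Near it lay the apolipoprotein and lipase list (2 rises among 9 tested) and the uptake receptors (1 rise and 2 falls among 12). The galectins (1 fall among 5 tested) and sterol synthesis (2 rises among 10) also lay near it. Nothing is read from the counts of these lists. With 2 mice at 48 h, many calls rest on both: without mouse 2 the fit called 181 genes in all and without mouse 1 it called 631. Of 32 named pathway genes that passed, 22 did not pass without mouse 1, 26 without mouse 2, 5 without mouse 3 and 10 without mouse 5, and each of them passed without mouse 4. In all, 11 of the 32 lost their call under at least 1 other alternative: 8 without cells that held a monocyte marker UMI, and 6 of the 26 that could be tested with equal cells and 1000 UMIs per cell. There were 6 that passed whichever mouse was left out (Cyp27a1, Ch25h, Plin2, Cd63, Trem3 and Acp5).

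Of 14 genes of the LXR and cholesterol efflux list 4 rose and 3 fell (median log2 fold change -0.03, against 0.07 over all genes). The sterol 27-hydroxylase Cyp27a1 rose from 7.55 and 6.14 CPM to 43.6, 32.8 and 47.3, by 2.65 on the log2 scale (SE 0.21, adjusted p = 0.00282). The phospholipid transfer protein Pltp rose from 46.8 and 29.1 to 230, 96.9 and 240 CPM (2.37, adjusted p = 0.0147), the LXR partner Rxra by 1.69 and Mylip, an LXR target that encodes a ubiquitin ligase, by 0.92 on the log2 scale. The cholesterol 25-hydroxylase Ch25h fell from 116 and 95.3 to 10.8, 13.4 and 13.6 CPM, by -3.01 on the log2 scale (SE 0.15, adjusted p = 0.00124). Mylip no longer passed with equal cells (0.53) or without cells that held a monocyte marker UMI (0.41). Pparg (-0.89) and the transporter gene Abca7 (-0.74) also fell, the latter at 0.15 and no longer called without cells that held a monocyte marker UMI. Nr1h3, which encodes LXR alpha, was 13.2 and 7.35 CPM against 6.74, 4.81 and 6.02 (log2 fold change -0.75, adjusted p = 0.109) and missed the threshold. The list held 1 rise and 1 fall without mouse 1 or without mouse 2.

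Of 10 other apolipoprotein and lipase genes 2 rose, 0 fell and Apod was too low to be tested. Besides Apoc4, the lysosomal acid lipase gene Lipa rose from 164 and 150 to 230, 301 and 310 CPM (log2 fold change 0.89, adjusted p = 0.0119), and 0 of the list passed without mouse 1 or mouse 2. Without cells that held a monocyte marker UMI, Lipa was at 0.36 and no longer called. Lipoprotein lipase, Lpl, spread widely within both times, 298 and 476 CPM against 193, 236 and 466 (log2 fold change -0.33, adjusted p = 0.57). Of 12 uptake receptors 1 rose and 2 fell: Stab1, a scavenger receptor, rose (1.20, adjusted p = 0.00612), while Cd36, a fatty acid and oxidised lipid receptor, fell (-1.04, adjusted p = 0.00425), as did the apolipoprotein E receptor gene Lrp8 (-1.24). Stab1 was no longer called without cells that held a monocyte marker UMI (0.69, adjusted p = 0.0501). Without mouse 2 none of the receptors was called, counting rises and falls.

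Among 10 genes of cholesterol storage and lysosomal export 4 rose and 1 fell. Fabp5, a fatty acid binding protein, rose from 153 and 106 to 565, 957 and 522 CPM (log2 fold change 2.45, adjusted p = 0.00665). Npc1 and Npc2, which move cholesterol out of lysosomes, rose by 1.05 and 0.62 on the log2 scale, and the cholesteryl ester hydrolase Nceh1 by 0.62. The droplet coat gene Plin2 fell from 602 and 523 to 133, 125 and 185 CPM, by -1.88 on the log2 scale (SE 0.18, adjusted p = 0.0034). Without mouse 2 only the fall of Plin2 was called in this list, and with equal cells Npc1 was no longer called.

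Of 15 genes often listed with TREM2 in macrophages 8 rose and 0 fell (median log2 fold change 0.97). The tetraspanin Cd63 rose from 301 and 157 to 909, 1146 and 927 CPM (log2 fold change 2.18, adjusted p = 0.00644). Syngr1 (3.06), the lysosomal protease Ctsb (1.20) and the tetraspanin Cd9 (0.84, adjusted p = 0.0395) rose as well. Spp1, osteopontin, did not pass and split the late mice, with 5655 and 4683 CPM against 1498, 4401 and 1667 (log2 fold change -0.98, adjusted p = 0.168). Cd9 was no longer called with equal cells (0.67) or without cells that held a monocyte marker UMI (0.25). The count of rises ran from 1 without mouse 2 to 9 without mouse 4, and with equal cells the list had 6 rises and 1 fall among 13 tested.

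Of 16 TYROBP partner and signalling genes 2 rose and 6 fell (median log2 fold change -0.45). Trem1, Trem3 and Treml4, which lie beside Trem2 on chromosome 17, fell while Trem2 was higher: Trem3 went from 43.2 and 47.2 to 2.36, 3.11 and 2.24 CPM (log2 fold change -4.07, adjusted p = 0.00124), Treml4 by -2.58 and Trem1 by -1.92. The receptor gene Cd33 rose from 20.2 and 34.1 to 94.8, 190 and 94.0 CPM (2.26, adjusted p = 0.0144). Hcst, the adaptor gene next to Tyrobp on chromosome 7, rose by 1.10 on the log2 scale. The kinase gene Syk was 72.0 and 71.8 CPM against 112.5, 81.9 and 88.8 (log2 fold change 0.45, adjusted p = 0.0884) and missed the threshold. Monocyte markers were lower at day 10 as well (5244 and 7730 against 812, 1071 and 1117 CPM summed), and their part in these falls was not tested beyond the next values. Without cells holding a monocyte marker UMI the list had 5 rises and 2 falls, and Trem1 and Treml4 no longer passed. Without mouse 2 the list had 0 rises and 1 fall.

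Of 9 genes of MITF and TFE factors and their targets 6 rose and 0 fell (median log2 fold change 1.15). Atp6v0d2, a proton pump subunit, rose from 1.21 and 1.31 to 40.4, 116 and 47.4 CPM, by 5.79 on the log2 scale (SE 0.70, adjusted p = 0.00538). The acid phosphatase Acp5 rose from 22.8 and 16.4 to 121, 175 and 130 CPM (2.92, adjusted p = 0.00282) and the protease Ctsk from 0.135 and 0.705 to 8.72, 7.45 and 4.11 CPM (3.94, adjusted p = 0.0104). The 48 h values of Ctsk rest on few UMIs, so the size of its fold change is uncertain. Mitf itself rose by 0.78 on the log2 scale (adjusted p = 0.0408). Without mouse 1 or mouse 2 the list had 1 rise. With equal cells and 1000 UMIs per cell, 2 of the 6 that could be tested rose, with a median of 0.63, and Mitf was no longer called (0.87).

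Of 6 other galectin genes 1 fell, Lgals1, from 1621 and 1619 to 605, 731 and 548 CPM (log2 fold change -1.31, adjusted p = 0.00438, not called without mouse 2), and Lgals2 was too low to be tested. Of 10 sterol synthesis genes 2 rose, Lss (1.86, adjusted p = 0.0432) and Hmgcs1 (0.87, adjusted p = 0.0487), and 0 fell. Neither of these rises was called without mouse 1 or mouse 2, Lss was not called without cells that held a monocyte marker UMI, and Hmgcs1 was not called with RLE factors or with equal cells.

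**Figure D5:**
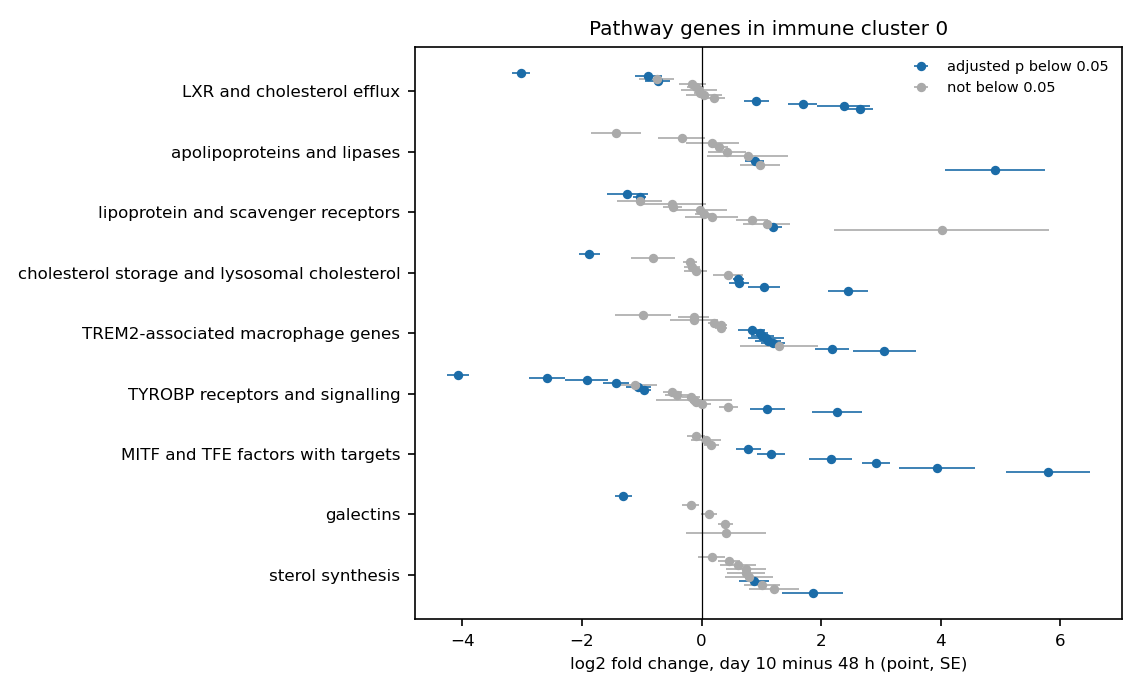
Log2 fold changes of pathway genes in cluster 0, day 10 minus 48 h (horizontal axis, points with SE bars), by list (rows); blue points have an edgeR adjusted p below 0.05 and grey points do not. The MITF and TFE list and the TREM2-associated list hold blue points only to the right of 0, the TYROBP list mostly to the left.

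The genes most like each of the 8 were found by Pearson's r of log2(CPM + 1) over 85 profiles (17 types in 5 mice, sharing libraries and depth), among 11029 genes with a mean of at least 5 CPM. For Apoe they were C1qb (r = 0.86), C1qc, Mrc1, C1qa and H2-Aa. Trem2 was nearest to C3ar1 (r = 0.91), C1qb and C1qa, and Gpnmb to Mrc1 (r = 0.79), Abca9 and Trem2. Tyrobp was nearest to Fcer1g (r = 0.98), Cyth4 and Laptm5, and Apoc2 to March1 (r = 0.83), Rnase6 and Clec4a3. The other 3 had likenesses outside this group: Abca1 with Grn (r = 0.72), Leprot and Adam15, Abcg1 with Rbms1 (r = 0.88), Git2 and Mef2a, and Lgals3 with Arf3 (r = 0.78), Tbc1d9 and Arrdc1. Among the 8, r was highest between Apoe and Trem2 (0.78) and lowest between Apoe and Lgals3 (-0.07). These values describe profiles that are not independent.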

How the data were processed

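Libraries of 5 mice, 1 per mouse, were analysed. The authors deposited raw UMI counts per gene and barcode for each library and a table of the kept cells with cell type labels, clusters and the percent of mitochondrial UMIs. Tools named in the submitters' processing notes are Cell Ranger 6.0.2 and Seurat 4.0.5, with build mm10; per the file headers the matrices come from Cell Ranger 6.0.0. Removal of doublets or of free RNA is not visible in the deposited files, and none was added here. The embedding scores deposited by the authors were not used. The cells, labels and clusters of the deposited table were used as given, and its UMI counts equalled those of the matrices.

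Raw counts were summed per mouse and cell type (at least 20 cells in each library) and per immune cluster, and CPM are per 1000000 of those sums. Day 10 was compared with 48 h by edgeR 4.0.16 (R 4.3.3) with filterByExpr, TMM factors, the quasi-likelihood F test and Benjamini-Hochberg adjustment (threshold 0.05), tested on simulated data first. SE is the absolute log2 fold change divided by the square root of F. The p-values set the time difference against the spread between these mice, estimated with information shared over the genes tested. Shares of positive cells used cells thinned to 1000 UMIs. DESeq2 1.42.0, RLE factors, no filter, equal cell numbers, leaving out cells with monocyte or macrophage marker UMIs and leaving out each mouse were the alternatives. The members and lists were chosen with earlier results of these data known. Named genes were the 8, up to 3 rises and 3 falls per list, and 12 genes of interest whatever their change, of which 1 is not reported here. Nearest genes leave out gene models (Gm and Rik names). Promoters are from RefSeq and positions from GENCODE M21. Each mouse is 1 animal, and no batch is given.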

Additional observations from a re-analysis of the deposited data

Results flagged for a closer look

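Lgals3 and Abca1 differed from cluster 0 in the direction of their time difference in some tubule types, with a mean of at least 20 CPM and every mouse of 1 time above or below every mouse of the other. The difference between the types was not tested. Lgals3 went from a mean of 1250 to 1005 CPM in cluster 0. It went from 443 to 1149 CPM in the thick ascending limb, from 552 to 955 in connecting tubule and from 476 to 1036 in injured distal tubule cells. It went from 142 to 289 CPM in injured proximal tubule cells and from 863 to 1113 in the TEC label. Abca1 went from a mean of 54.2 to 266 CPM in cluster 0 and from 97.7 to 67.7 CPM in the distal convoluted tubule.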

How the results depend on the processing

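The fold changes of the 8 genes in cluster 0 kept their direction under RLE factors, DESeq2, no filter on low counts, equal cells and leaving out any 1 mouse. When cells with an unthinned monocyte marker UMI were left out, 2 turned: Apoc2 to 3.27 and Lgals3 to 0.50 (log2 fold change). The cells left at 48 h were shallower. Split after thinning to 1000 UMIs, Lgals3 overlapped between the times in cells without a monocyte marker UMI (850 and 673 against 591, 727 and 604 CPM). Leaving out the cells with an unthinned monocyte marker UMI also moved Abca7 from -0.74 to 0.15, Trem2 to 2.03, Abcg1 to 1.32 and Gpnmb to 8.22. That value of Gpnmb rests on 3 UMIs at 48 h against 10450 at day 10, a ratio of 285. Its 95% counting interval (97.4 to 1381) takes UMIs as independent and leaves out the spread between cells and between mice. With cells split after thinning to 1000 UMIs the difference was smaller: Gpnmb was 10.2 and 7.43 CPM at 48 h against 122, 312 and 86.3 at day 10. Those 48 h values rest on 3 and 2 UMIs, and the part of depth was not tested. With equal cell numbers and 1000 UMIs per cell, Abca1 was 2.94, Lgals3 -0.73, and 871 genes were called in cluster 0 and 1476 in the immune type, with fewer genes tested (6165 and 8394). Leaving out each mouse in turn gave 181 to 4306 called genes in cluster 0 and 128 to 3719 in the immune type, lowest without mouse 2 and highest without mouse 4 (3364 and 2774 with all mice), with 631 and 580 without mouse 1 and 1316 and 866 without mouse 5. It gave log2 fold changes of 3.76 to 4.16 for Apoe, 2.03 to 2.78 for Abca1, -0.90 to -0.41 for Apoc2 and -0.78 to 0.064 for Lpl, which turned without mouse 2. A lone 48 h mouse is assumed to vary like the others. Leaving out cells with a macrophage marker UMI moved the day 10 mean of Apoe to 424 CPM in thick ascending limb, 1289 in endothelium and 951 in S1 cells. Shares of positive cells rose with depth: unthinned they were 87.6 and 99.5% for Apoe, 61.8 and 81.5% for Trem2 and 2.80 and 24.8% for Gpnmb (48 h and day 10). At 2000 UMIs they were 77.0% for Apoe at 48 h and 29.9 and 56.1% for Trem2. No paired analysis was possible because the mice of the 2 times carry different numbers. Cell depth limits what can be said of Abcg1, and of Abca1 and Gpnmb at 48 h, whose transcripts were seen in few cells.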
